A study of Mus musculus with 18 samples.

Results

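Intergenic circles are the circular RNAs that the authors' table of testis circles assigned to no gene. They were taken as every listed circle whose annotation class is intergenic, which gave 273 of 7391 circles (3.69%) and 3267 of 98762 circle counts (3.31%). The libraries came from whole testis of adult C57BL/6 mice carrying a knock-in allele of Taf7l (KI, 3 libraries) or the wild-type gene (WT, 3 libraries). Taf7l is X-linked and encodes a germ-cell relative of a TFIID subunit, and the series concerns a missense mutation in it. Tissue was flash frozen, RNA was taken up in Trizol, and libraries were made with a stranded total RNA kit. Whether the libraries of a genotype stem from different animals is not stated in the sources used here, and each p-value is relative to a spread between libraries that may be technical. The labels name 18 samples, and the 12 made from isolated germ cells (pachytene spermatocytes, round spermatids) were not analysed here.

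A circular RNA forms by back-splicing, in which the splice donor at the end of an exon is joined to an acceptor upstream of it. Because a circle has no free end, exonucleases that degrade linear RNA do not attack it, and circles can persist in cells. Most known circles consist of exons of protein-coding genes, and mammalian testis is one of the tissues in which many are found. A circle outside annotated genes may come from a transcript that the annotation does not hold. In what follows the acceptor is the upstream end of a circle, the donor the downstream end, and the span the genomic distance between them. For all 273 circles the authors' spliced length equalled the span, so the length of the RNA itself is unknown.

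The 6 libraries held 14381 to 20127 circle counts. All 6 carried the RNA of all 7 germ-cell markers checked, and the summed FPKM of germ-cell, Sertoli, Leydig, myoid, macrophage, endothelial, epididymal and erythrocyte markers overlapped between the genotypes for every list. Of 6 epididymal markers, 1 was at 0 in all libraries. Tested were 7 germ-cell, 8 Sertoli, 6 Leydig, 6 myoid, 6 macrophage, 5 endothelial, 3 epididymal and 5 erythrocyte markers. Over the germ-cell list the median log2 change was -0.05. Of all markers tested 1 was called between the genotypes, beside 0.982% of all 15787 mRNA genes tested. This was Prm2, a protamine that packs sperm DNA, with 2850, 2541 and 2949 FPKM in KI testes against 2088, 1935 and 1796 FPKM in WT testes (log2 change 0.53 ± 0.09, SE, adjusted p = 0.0289 by edgeR). Its part in the circle results was not tested. Taf7l itself had 472, 525 and 581 counts in KI testes, against 507, 551 and 531 counts in WT testes, and its log2 change was -0.11 ± 0.08 (SE, adjusted p = 0.632 by edgeR). These counts do not check the labels, as a missense change need not alter the level of a transcript.

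Splice sites were looked at first, since a circle is defined by its 2 ends. No genome of the files' build was at hand, so letters could be read only where an end fell within a RefSeq promoter window, 250 bases before to 50 bases after a gene start. Among circles of every class, 77 acceptors fell in such a window with the 2 bases before them in it, and all 77 followed AG, the dinucleotide that ends an intron. All 15 donors that could be read were followed by GT, which opens one. The acceptors included 6 of intergenic circles. Callers of circles often accept only such ends, and the caller used is not known, so the match checks that the coordinates were read in register and is no separate evidence for the circles. The flanks of these 6 intergenic acceptors, of 247 in the class, are printed as those that could be read. All lie near a RefSeq gene start because only such windows could be read, so they do not stand for the class. The sequences run 5′ to 3′ on the strand of the circle, are from RefSeq on GRCm38.p6, and carry 20 bases before the circle and up to 20 bases of it, with the AG at the acceptor in capitals.
novel_circ_001671: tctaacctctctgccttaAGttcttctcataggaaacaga
novel_circ_002170: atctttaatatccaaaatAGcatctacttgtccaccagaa
novel_circ_002494: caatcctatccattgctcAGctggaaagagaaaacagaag
novel_circ_003333: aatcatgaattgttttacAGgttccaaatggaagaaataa
novel_circ_004658: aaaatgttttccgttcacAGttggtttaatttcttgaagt
novel_circ_006118: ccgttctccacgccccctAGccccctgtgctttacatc

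The flank of novel_circ_001671 lies at chr7:75437429-75437468 on the minus strand, beside the start of the noncoding gene Gm46017. Those of novel_circ_002170 at chr8:112475551-112475590, novel_circ_002494 at chr16:42652607-42652646 and novel_circ_003333 at chr14:102570355-102570394 are also on the minus strand, beside the starts of Gm39254, Gm29960 and Gm41233. The plus-strand flanks are those of novel_circ_004658 at chr13:25360462-25360501, beside Gm34122, and novel_circ_006118 at chr4:33568260-33568297, beside Gm32893. In each case the circle and the gene are on the same strand. Their abundance differed widely. novel_circ_001671 had 2, 4 and 7 counts in KI libraries and 3, 4 and 1 counts in WT libraries, and was present in all 6. novel_circ_002494 had all of its 6 counts in 1 WT library. The other 4 held between 3 and 8 counts over the 6 libraries.

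The label intergenic holds only against the annotation the authors used, which is not given in the sources used here. Against RefSeq on the same build, 136 of the 273 circles overlapped a gene on either strand, 72 of them (26.4%) with both ends inside 1 gene and 64 in part. Of the 72, 45 lay in long noncoding RNA genes and 23 in genes listed as protein coding. Where the strand of that gene is listed, 41 circles were on the same strand and 6 on the opposite one, and for 25 no strand is listed. Of the 64 that overlap a gene in part, 49 touched a long noncoding RNA gene and 2 a protein-coding gene. The remaining 137 circles lay outside every RefSeq gene, with a median of 21173 bases to the nearest and a range of 172 to 550878 bases, and 43 of them were within 10 kb. By comparison, 95.9% of the 7118 other circles lay inside a RefSeq gene.

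Counts were split differently from circles. The 72 circles inside a RefSeq gene held 2032 counts (62.2% of intergenic counts), the 64 in part 393 counts and the 137 outside 842 counts. Most of the counts inside genes came from 1 locus on chromosome 1, described next. Without it, 61 circles inside genes held 24.5% of the remaining 1635 counts, those in part 24.0% and those outside 51.5%.

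Intergenic circles, like those of other classes, were mostly rare. Their median was 4 counts over the 6 libraries, against 5 for all other circles together, 4 for antisense, 4 for exon-intron and 3 for intronic circles. Among the intergenic ones 84 had 2 counts, the lowest total of any listed circle, and 46 had 10 or more. The 12 most abundant held 1853 counts, 56.7% of the class. Spans had a median of 7780 bases and ran from 154 to 87293 bases, against a median of 13654.5 bases for other circles. By class, the median was 20744.5 bases for exon-intron and 14367 for exonic circles. It was 2042.5 bases for intronic, 1390.5 for antisense and 481 for single-exon circles. None carried an identifier of a circle database, and neither did any of the 172 antisense or 118 intronic circles, whereas 261 circles of the remaining classes did.

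One locus, chr1:97182978-97270042 on the plus strand, carried 11 circles and 1632 counts, 49.95% of all intergenic counts. It lies inside Gm7133, a RefSeq gene of unknown function listed as protein coding, whose strand is not listed and which is in neither the mRNA nor the noncoding table. No circle of another class overlapped it. The locus gave 278, 215 and 303 counts in KI libraries, against 353, 221 and 262 counts in WT libraries. The highest library was WT and the lowest was KI, and the others lay between them with no gap between the genotypes.

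Within the locus 9 of the 11 circles used a single acceptor at position 97182978 and differed in their donor. These 9 held 1608 counts. The most abundant, novel_circ_006579, joined this acceptor to a donor 6391 bases on and had 903 counts, rank 4 among all 7391 circles. It had 147, 109 and 168 counts in KI libraries, against 201, 134 and 144 counts in WT libraries. Its log2 change was -0.34 ± 0.16 (SE, 95% interval -0.65 to -0.03), with a p of 0.0318 before adjustment and 0.979 after it by edgeR, so it was not called. It was -0.18 without WT replicate 1 and -0.17 without KI replicate 2. The second, novel_circ_001139, used a donor 86680 bases from the acceptor, near the far end of the locus. It had 85, 64 and 75 counts in KI libraries, against 106, 49 and 71 counts in WT libraries. The WT libraries held both its highest and its lowest value, and its log2 change was -0.16 ± 0.19 (SE, adjusted p = 0.979 by edgeR), or 0.12 without WT replicate 1.

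Intermediate donors were used less. novel_circ_000319, with a span of 35918 bases, had 22, 25 and 24 counts in KI libraries, against 20, 15 and 21 counts in WT libraries, and a log2 change of 0.18 ± 0.32 (SE, adjusted p = 0.979 by edgeR). All KI libraries were above all WT libraries in raw counts, but relative to all circle counts the lowest KI library had 1192 RPM and the highest WT library 1457 RPM, so the genotypes overlapped. novel_circ_007008, with a span of 60633 bases, had 13, 9 and 15 counts in KI libraries, against 12, 14 and 12 counts in WT libraries, and a log2 change of -0.22 ± 0.42 (SE, adjusted p = 0.979 by edgeR). The genotypes overlapped for this one. The remaining 7 circles of the locus held 3 to 21 counts each. Among them novel_circ_006599 ended only 2 bases before the donor of novel_circ_006579 and had 8 counts, and novel_circ_001028, the second longest of the class at 87065 bases, had 2, 6 and 6 counts in KI libraries against 0, 5 and 0 counts in WT libraries. novel_circ_004428 was at 0 in all KI libraries and had 3, 0 and 4 counts in WT libraries, where a count of 0 allows up to 3 counts.

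**Figure D1:**
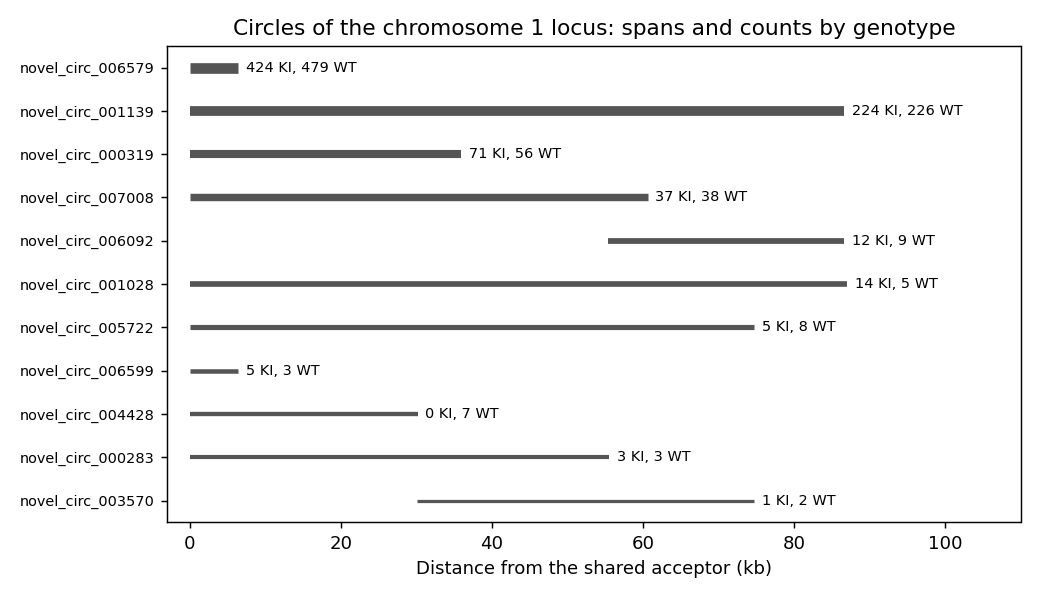
Spans of the 11 intergenic circles of the chromosome 1 locus, as lines along the distance in kb from the acceptor that 9 of them share, thicker for higher counts, with the summed counts of 3 KI and 3 WT libraries beside each. The shortest main junction, novel_circ_006579, has 424 KI and 479 WT counts, and the far donor of novel_circ_001139 has 224 KI and 226 WT counts.

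Acceptors and donors of different circles also came close to each other in an order that an exon would have. In this locus novel_circ_006092 began at 97238387 and novel_circ_000283 ended at 97238531, which bounds 145 bases. Likewise novel_circ_003570 began at 97213012 and novel_circ_004428 ended at 97213130, which bounds 119 bases. Over all intergenic circles 5 such pairs from different circles bounded at most 300 bases, from 73 to 145 bases, at 4 loci on chromosomes 1, 4, 14 and X.

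The nearest gene of the mRNA table to this locus was Slco6c1, a solute carrier organic anion transporter gene, 54639 bases away. It had 2937, 2421 and 3097 counts in KI testes, against 3194, 2953 and 2856 counts in WT testes, and its log2 change was -0.19 ± 0.09 (SE, adjusted p = 0.423 by edgeR). The ranges overlapped.

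Relative to all circle counts (RPM), the locus averaged 15127 ± 2014 RPM in KI libraries and 17981 ± 2521 RPM in WT libraries (SD, n = 3 each), which an exact permutation test over libraries did not separate (two-sided p = 0.2). The smallest p that 3 against 3 libraries allow is 0.1. The difference of -2854 RPM ranged from -4161 to -1646 when 1 library was left out, and it moved by over 1.5 times without WT replicate 1 (-1646) or KI replicate 2 (-1866). The share of shared-acceptor counts on the shortest main junction was 53.6%, 50.9% and 56.9% in KI libraries, against 57.4%, 60.6% and 56.7% in WT libraries. The highest KI library lay above the lowest WT library, and the difference was -4.41 percentage points (exact permutation test, two-sided p = 0.2). Both of these measures were chosen after seeing the data.

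Outside this locus no intergenic circle exceeded 57 counts. novel_circ_004281, at chr2:23807298-23815194, had 7, 8 and 14 counts in KI libraries, against 9, 7 and 12 counts in WT libraries. It lies outside every RefSeq gene, 125708 bases from the nearest. The genotypes overlapped.

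novel_circ_000198, at chr13:49820613-49830616 inside Gm272, had 2, 4 and 17 counts in KI libraries, against 7, 8 and 12 counts in WT libraries. A single KI library held most of its KI counts. A shorter circle of the same locus, novel_circ_007178, ended at the same donor, and so did 2 circles that the authors assigned to other genes, 1 to Gm47977 and 1 to Gm30302 as antisense, with 6 counts each. Circles with this 1 donor were thus placed in 3 classes.

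novel_circ_000933, at chr7:142761339-142764062 on the minus strand, had 11, 7 and 4 counts in KI libraries, against 6, 4 and 8 counts in WT libraries. Its acceptor was shared with 2 circles of 43 and 10 counts that the authors placed in the exon-intron class of Ins2, an insulin gene. By its RefSeq position Ins2 lies 81613 bases away, and where the authors' annotation placed it is not known. Ins2 had 4, 0 and 0 counts in KI testes and 0, 1 and 1 counts in WT testes. The more abundant of these 2, novel_circ_001902, had 8, 10 and 6 counts in KI libraries and 7, 3 and 9 counts in WT libraries, so the circles outnumbered the reads of the gene they were assigned to. In all, 7 intergenic circles shared an end with a circle of another class, at 5 source genes besides antisense Gm30302, namely Gm47977, Ins2, 4921504A21Rik, 1700101O22Rik and Gm31415.

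The other abundant circles were even in their counts or uneven within a genotype. novel_circ_003967, at chr11:13954661-13962299 and partly over the noncoding gene Gm30770, had 6, 6 and 7 counts in KI libraries, against 5, 5 and 6 counts in WT libraries. novel_circ_000510, at chr6:7279943-7294021, had 5, 6 and 3 counts in KI libraries, against 5, 6 and 5 counts in WT libraries. These 2 were steady from library to library.

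By contrast, novel_circ_003153, at chr14:106151690-106159235, had 2, 3 and 12 counts in KI libraries, against 6, 7 and 3 counts in WT libraries. novel_circ_005565, at chr4:92107057-92134944, had 2, 5 and 9 counts in KI libraries, against 9, 2 and 0 counts in WT libraries. novel_circ_004067, at chr1:34522280-34525197, had 2, 12 and 3 counts in KI libraries, against 1, 6 and 2 counts in WT libraries. For each of these 3 the spread within a genotype covered the gap between the genotypes.

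**Figure D2:**
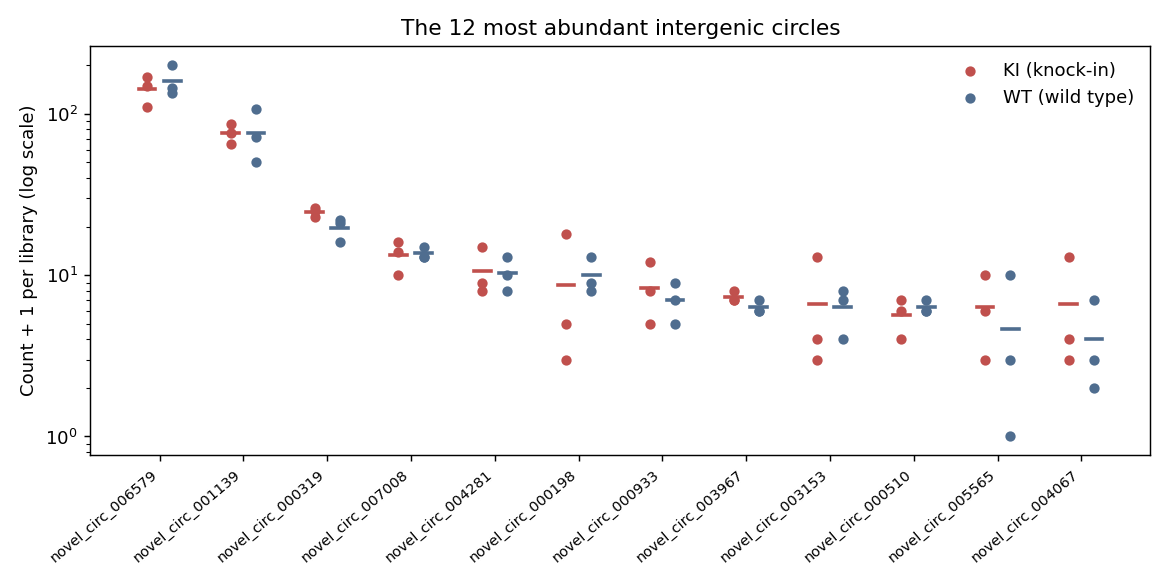
Counts of the 12 most abundant intergenic circles in each of 3 KI and 3 WT libraries, as count + 1 on a log axis, with a bar at each genotype's mean count + 1. The first 4 circles belong to the chromosome 1 locus, and novel_circ_006579 runs from 109 to 201 counts.

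The 273 circles fell into 220 loci of overlapping circles on 1 strand, of which 192 held a single circle and 28 held several, 81 circles and 2205 counts in all. Sharing of ends was less frequent than in the pool of other circles, most of which are exonic, and than in exon-intron circles. It was more frequent than in intronic and single-exon circles, and for donors than in antisense circles. An acceptor was shared by 40 intergenic circles (14.7%), against 40.8% of the others, and a donor by 35 (12.8%), against 29.3% of the others. Of these 40 circles 9 used the main acceptor of the chromosome 1 locus. The acceptor share was close to that of antisense circles and depends on that locus. An acceptor was shared by 21.4% of exon-intron, 13.95% of antisense, 8.47% of intronic and 3.32% of single-exon circles. A donor was shared by 15.4% of exon-intron, 4.65% of antisense, 9.32% of intronic and 0.0% of single-exon circles. These shares are a description, since overlapping circles of 1 gene are not independent. The largest loci after chromosome 1 with 3 or more circles were on chromosome 7, with 5 circles and 54 counts partly over Gm46017 and Gm10161, and on chromosome 3, with 5 circles and 53 counts at the noncoding gene Gm31466. The chromosome 7 locus gave 6, 10 and 11 counts in KI libraries and 12, 4 and 11 counts in WT libraries. The chromosome 3 locus gave 10, 13 and 5 counts in KI libraries and 17, 2 and 6 counts in WT libraries, and 4 of its 5 circles shared 1 acceptor.

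On the X chromosome were 9 intergenic circles, 3.30% of the class, against 0.843% of the other circles, and 5 of the 9 came from 1 locus. This locus, chrX:66792833-66811615 on the minus strand, holds microRNA genes of a cluster known for its expression in male germ cells. MicroRNAs are short RNAs that pair with target transcripts through bases 2 to 8 of the mature strand, the seed. The locus gave 7, 5 and 8 counts in KI libraries, against 6, 5 and 5 counts in WT libraries. Of its 5 circles 4 shared a donor at 66792833, and novel_circ_005258 was the most abundant of them, with 6, 4 and 4 counts in KI libraries against 3, 3 and 0 counts in WT libraries. All KI libraries were above all WT libraries in raw counts, but relative to all circle counts the lowest KI library had 199 RPM and the highest WT library 209 RPM, so the genotypes overlapped.

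Going upstream from the shared donor, the hairpins of Mir741 and Mir463 lay within novel_circ_001296, those 2 and Mir880, Mir878 and Mir881 within novel_circ_002174, and Mir871 within novel_circ_006681. The span of novel_circ_005258 held none. The mature 3p strands, printed 5′ to 3′ from RefSeq on GRCm38.p6 with the seed in capitals, show that each of these 6 genes has a seed of its own.
mmu-miR-741-3p: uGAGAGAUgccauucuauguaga
mmu-miR-463-3p: uGAUAGACaccauauaagguag
mmu-miR-880-3p: uACUCCAUccucucugaguaga
mmu-miR-878-3p: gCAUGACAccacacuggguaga
mmu-miR-881-3p: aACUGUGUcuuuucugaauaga
mmu-miR-871-3p: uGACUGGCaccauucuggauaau

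Counting both arms, the 12 mature microRNAs of the locus had 12 different seeds. Mature microRNAs were not measured in these tables, and whether a hairpin is part of the circle or of a spliced-out stretch cannot be told from a back-splice count. A hairpin lay within the span of 4 of 273 intergenic circles (1.47%), against 56 of 7118 other circles (0.787%). The one off the X chromosome was Mir683-2 in novel_circ_000338 on chromosome 13, which had 3 counts, all in WT libraries.

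**Figure D3:**
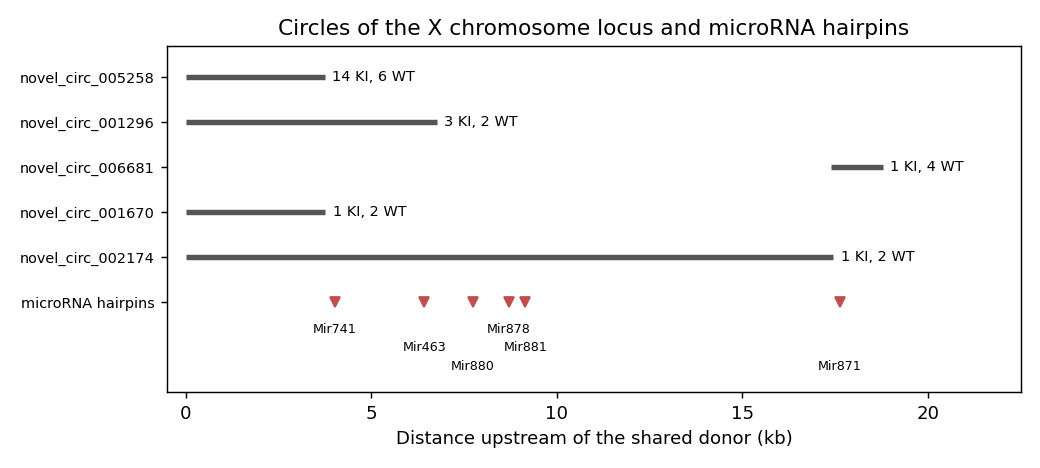
Spans of the 5 intergenic circles of the X chromosome locus along the distance in kb upstream of the donor that 4 of them share, with summed counts of 3 KI and 3 WT libraries, and below them the positions of 6 microRNA hairpins. novel_circ_005258, with 14 KI and 6 WT counts, ends before the first hairpin.

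Intergenic circles were found in fewer libraries than the pool of other circles, most of which are exonic, but in more than antisense and intronic circles. Of the 273, 118 (43.2%) were in 1 library only and 19 (6.96%) in all 6, against 28.7% and 14.99% of the other circles. Antisense circles had 55.2% in 1 library and 6.40% in all 6, and intronic circles 57.6% and 3.39%. For exon-intron circles these shares were 38.6% and 8.38%, and for single-exon circles 32.8% and 17.3%. A library detected 40.4% ± 3.65 of the listed intergenic circles and 50.6% ± 3.27 of the others (SD, n = 6 libraries). The difference of -10.2 percentage points had the same sign in 6 of 6 libraries (exact paired permutation test, two-sided p = 0.031, and 6 pairs allow none smaller), and the adjusted p over the 6 permutation tests run was 0.1875. The paired tests of intergenic against other circles use the same listed circles in every library. Their p-values are thus relative to libraries and do not measure a spread between circles.

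When detected, an intergenic circle had a mean of 4.95 ± 0.643 counts per library, against 4.40 ± 0.287 counts for other circles (SD, n = 6 libraries, exact paired permutation test, two-sided p = 0.0625, adjusted p = 0.1875). Without the 11 circles of the chromosome 1 locus the intergenic mean was 2.66 ± 0.263 counts (SD, n = 6 libraries), a value added after seeing the data. It is a description with no test, because the locus was picked for its counts while the other circles kept their most abundant members, up to 1773 counts. With geometric means, which weigh single abundant circles less, the difference was -0.175 counts (exact paired permutation p = 0.031, the smallest that 6 pairs allow). This was an alternative setting outside the 6 tests over which p-values were adjusted, so its p is unadjusted.

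**Figure D4:**
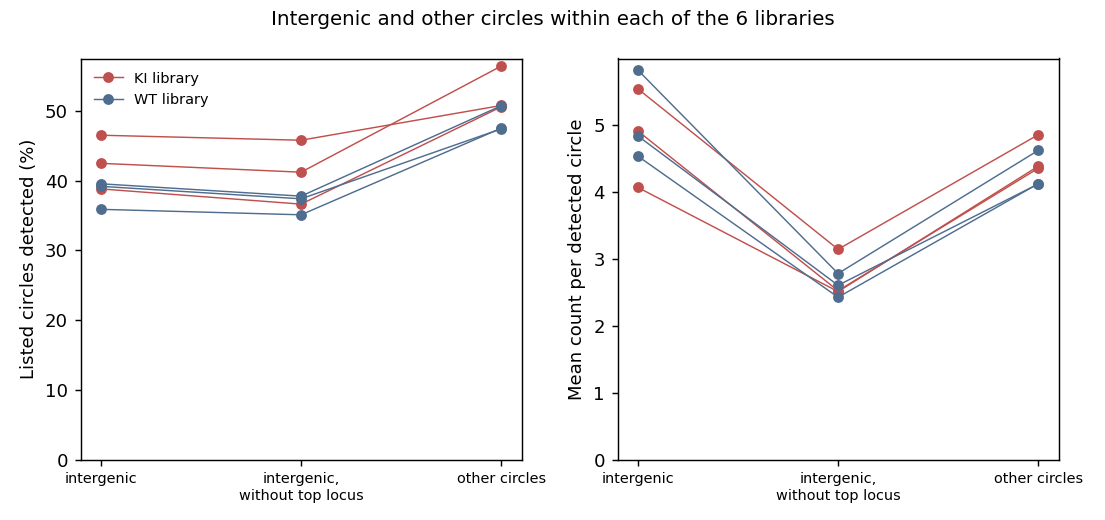
Percent of listed circles detected (left) and mean count per detected circle (right) in each of 3 KI and 3 WT libraries, for intergenic circles, intergenic circles without the chromosome 1 locus, and other circles. Points of 1 library are joined, and leaving out the locus, which was picked for its high counts, lowers the intergenic mean count to 2.66.

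No intergenic circle was called between the genotypes. Of the 273, 110 had counts in at least 3 libraries and were tested with all 3887 such circles, and 0 passed an edgeR adjusted p of 0.05, where the background over all circles was 0.0%. The lowest adjusted p among them was 0.979, and DESeq2 and limma called 0 as well. At an unadjusted edgeR p under 0.05 there were 6 of 110 (5.45%), 3 higher and 3 lower in KI, beside 4.91% of all circles tested. At that level DESeq2 had 1 of the 110, beside 70 of all 3887 circles, and limma 7 of the 110, beside 234 of all 3887. The median log2 change was 0.07, against 0.03 over all circles tested, and 57 circles were above 0 and 53 below. The median standard error was 1.42 on the log2 scale, so that most single circles could not be told apart at this depth.

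The 3 lower ones were novel_circ_006579, described above, novel_circ_002222 and novel_circ_007305. novel_circ_002222, on chromosome 3 over the noncoding genes Gm30184 and Gm42216, had 0, 0 and 1 counts in KI libraries, against 8, 2 and 1 counts in WT libraries. novel_circ_007305, also on chromosome 3, was at 0 in all KI libraries and had 4, 1 and 1 counts in WT libraries. The 3 higher ones were at 0 in all WT libraries. novel_circ_005468 had 3, 1 and 2 counts, novel_circ_006512 had 3, 1 and 1 counts, and novel_circ_003209 had 2, 1 and 2 counts in KI libraries. The filter needs 3 libraries with a count, so a circle at 0 in 1 genotype could be tested only when it was in every library of the other. Over the whole class 60 circles (21.98%) were at 0 in every KI library and 75 (27.5%) at 0 in every WT library, beside 16.5% and 21.5% of all 7391 circles. The KI libraries were deeper, with a mean of 17554 circle counts against 15367 in WT libraries.

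The share of circle counts on intergenic circles was 3.21%, 3.16% and 3.19% in KI libraries, against 3.63%, 3.09% and 3.59% in WT libraries. All KI values lay within the WT range. The means were 3.19% ± 0.0286 in KI and 3.43% ± 0.301 in WT (SD, n = 3 each, exact permutation test, two-sided p = 0.4). Fewer cells of a type and less RNA per cell cannot be told apart in whole testis. Without the chromosome 1 locus the shares were 1.50%, 1.84% and 1.68% in KI libraries, against 1.59%, 1.55% and 1.77% in WT libraries, and the difference turned from -0.248 to 0.0372 percentage points, a setting added after seeing the data.

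KI libraries detected 106, 127 and 116 intergenic circles, against 108, 98 and 107 in WT libraries. The difference of 12 circles was within the spread of libraries (exact permutation test, two-sided p = 0.3), and with 1 library left out it ranged from 6.67, without KI replicate 2, to 17.2. Thinned to 14381 circle counts per library, the expected difference was 6.89 circles.

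**Figure D5:**
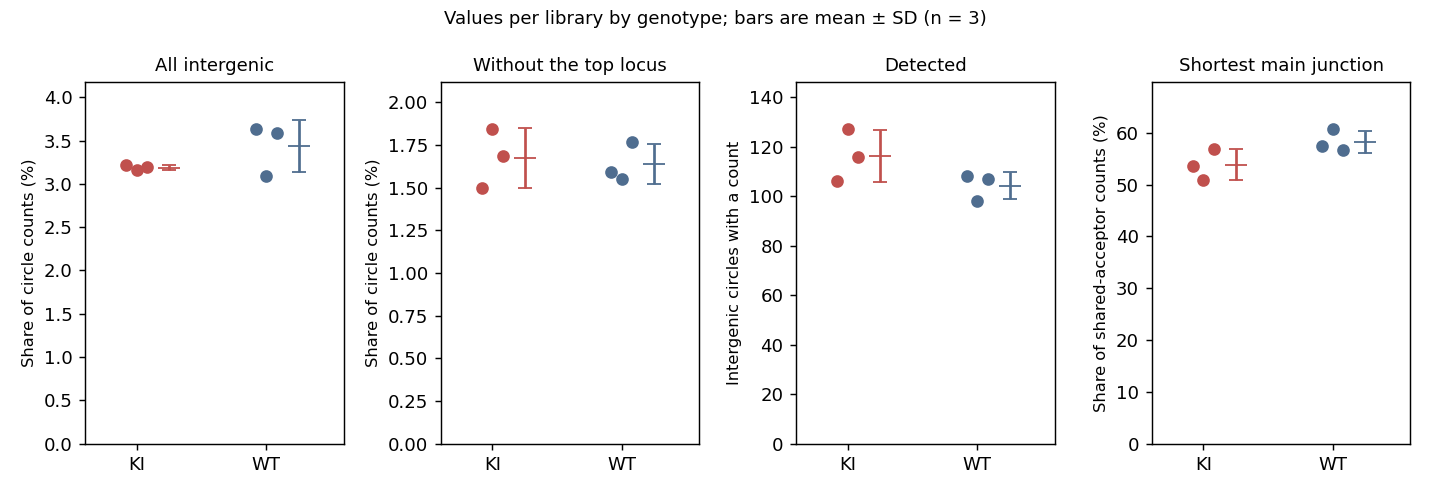
Values per library in KI and WT testes, with mean ± SD (n = 3): share of circle counts on intergenic circles with and without the chromosome 1 locus, number of intergenic circles with a count, and share of shared-acceptor counts on novel_circ_006579. The genotypes overlap in all 4 panels.

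The gene of the mRNA table nearest to each named circle was read, however far away it lay. Of 17 nearest genes 14 could be tested and 0 were called by edgeR, where the background over all 15787 mRNA genes tested was 0.982% called. Their log2 fold changes ran from -0.54 for Hnmt, a histamine-degrading enzyme, to 0.55 for the nuclear receptor gene Nr5a2. Hnmt lies 187717 bases from novel_circ_004281, and Nr5a2 lies 527761 bases from novel_circ_005468. The lowest adjusted p was that of Dynlrb2, a dynein light chain gene 131001 bases from novel_circ_005803, the shortest circle of the class. Dynlrb2 had 471, 508 and 624 counts in KI testes, against 387, 334 and 302 counts in WT testes, with a log2 change of 0.54 ± 0.11 (SE, adjusted p = 0.0523 by edgeR). Its libraries did not overlap between the genotypes, while the circle had 2 counts in 1 KI library.

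Izumo3, a sperm membrane protein gene 9374 bases from novel_circ_005565, had a log2 change of 0.03 ± 0.10, and Trim52, 15828 bases from novel_circ_003153, one of -0.02 ± 0.12 (SE). Cfc1, a Nodal co-receptor gene 10451 bases from novel_circ_004067, had 0 counts in all 6 libraries. Stn1, a telomere replication gene, holds novel_circ_006969 (168 bases, 2 counts), which is on its strand, and its log2 change was -0.00495 ± 0.131 (SE). The others were Aadacl2fm2 at -0.01, Gm30302 at -0.02, Igip at -0.07, Intu at 0.19, Map3k7 at -0.09, Pom121l12 at 0.08 and Sdhaf3 at -0.05 on the log2 scale. Distances to their circles ran from 6968 bases for Aadacl2fm2 to 636941 bases for Pom121l12. Ins2 and Olfm4 were too low to test. The longest circle, novel_circ_005041 (87293 bases), over the pseudogene Cyp2c73-ps, was 1280678 bases from Olfm4. novel_circ_006932, of 162 bases, lay 13592 bases from Igip.

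Noncoding transcripts could be compared through their gene symbols only, as that table has no coordinates. RefSeq genes overlapping an intergenic circle matched 22 transcripts, of which 6 were tested and 0 were called by edgeR, where the background over 9301 noncoding transcripts was 0.0968% called. The 6 tested came from 4 genes, so they are not separate members. Their median log2 change was -0.17, against 0.004 over all noncoding transcripts tested, with 2 above 0 and 4 below. The share of all noncoding transcripts with an unadjusted edgeR p under 0.05 is not given here, and 1 of the 6 was under it. This was a transcript of Gm13605, with 547, 525 and 558 counts in KI testes against 698, 648 and 565 counts in WT testes, a log2 change of -0.31 ± 0.09 (SE, adjusted p = 0.347 by edgeR). The KI libraries were all below the WT libraries. The circle over it, novel_circ_003878, had 2 counts, both in 1 KI library. The transcript of Gm31466, the gene of the chromosome 3 locus, had 106, 93 and 97 counts in KI testes against 85, 87 and 96 counts in WT testes (log2 fold change 0.06 ± 0.16, SE).

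Back-splicing depends on the spliceosome and on proteins that bring splice sites together or keep them apart, and circles are cleared by endonucleases. Of 50 genes listed for these roles 48 were tested, and 1 was called by edgeR, beside 0.982% of all mRNA genes. The one called was Hnrnpm, a splicing regulator, with 24.8, 25.3 and 25.1 FPKM in KI testes against 19.9, 21.2 and 18.4 FPKM in WT testes. It was higher in 3 of 3 KI libraries, by 0.33 ± 0.06 on the log2 scale (SE, adjusted p = 0.0442 by edgeR). The call was lost with RLE normalization (adjusted p = 0.0539 by edgeR), with limma (0.0602), with a replicate block (0.0543), and when any 1 library was left out (0.0757 to 0.195), while the log2 change stayed between 0.31 and 0.36 in all alternatives run.

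Next by p were the branch point binding protein Sf1, with a log2 change of 0.33 ± 0.07 (SE, adjusted p = 0.0529 by edgeR), the U1 snRNP protein Snrnp70, with 0.64 ± 0.16 (SE, adjusted p = 0.101 by edgeR), and G3bp1, Hnrnpd and others that did not pass. G3bp1, a stress granule protein, had a log2 change of 0.35 ± 0.11 and Hnrnpd, an RNA-binding protein that also acts in mRNA decay, one of 0.26 ± 0.09 (SE). At an unadjusted edgeR p under 0.05 there were 6 of the 48, beside 12.9% of all mRNA genes tested. Of these 6, G3bp2 was lower in KI testes, with a log2 change of -0.13 ± 0.06 (SE), and the others, named above, were higher. Over the list the median log2 change was 0.01, against 0.00 over all mRNA genes, with 26 genes above 0 and 22 below.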

How the data were processed

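Members and lists were chosen with earlier results of these data known. Per the file headers, the authors deposited tables of whole-number counts per circle, mRNA gene and noncoding transcript for 6 whole-testis libraries. The authors scaled the circle counts to RPM by the library's total of circle counts, which gives back the deposited RPM from the deposited counts. The linear RNAs also have FPKM, scaled by transcript length and depth as deposited by the authors. For each genotype the deposited tables add a mean signal, the log2 ratio of the means, and p-values with and without adjustment, none of which was used for a result. The submitters' processing notes name mm10 as the build, and the circle caller and annotation are not given in the sources.

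Counts were tested with edgeR 4.0.16 (TMM, quasi-likelihood, Benjamini-Hochberg adjustment over the whole table, called under 0.05). Circles needed a count in at least 3 of 6 libraries, and linear RNAs passed filterByExpr. Library totals were 17431309 to 21446420 counts for mRNA genes and 1384224 to 1647421 for noncoding transcripts. The code was tested on simulated data. DESeq2 1.42.0, limma 3.58.1 on log2 RPM with a pseudocount of 10 (log2 FPKM, 0.1), other scalings and filters, and leaving out each library were alternatives. Values of 1 number per library were compared by exact permutation of libraries, or of signs within library, and adjusted over 6 tests. Gene positions came from RefSeq on GRCm38.p6, by symbol, and sequences from its promoter and microRNA tables. Loci joined overlapping circles of 1 strand.

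Circles named are the 12 most abundant, up to 5 rises and 5 falls with the largest fitted change at an unadjusted p under 0.05, and the 3 longest and 3 shortest. Those present in all 6 libraries were to be named only if 15 or fewer, and were counted. Other circles, the X chromosome locus and those with printed sequence were chosen after their values were seen. Floors of 3 counts cover counting error only.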

Additional observations from a re-analysis of the deposited data

How the results depend on the processing

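No intergenic circle was called under any of the 14 alternatives run, and the count over all circles was 0 to 1 when 1 library was left out, the 1 being without KI replicate 2 and not intergenic. Of the back-splicing list, RLE normalization called 0 genes, no filter 2, DESeq2 3, and leaving out a library 0 to 0; limma called 1, Hnrnpd. Deviations from the genotype mean correlated at -0.0111 to 0.0129 between same-numbered libraries for circles, beside -0.0255 to 0.0129 between differently numbered ones. For mRNA these values were 0.0322 to 0.137 and -0.125 to 0.0462. Whether the replicate numbers pair the samples is not settled by these values. A replicate block gave 2 list genes, Sf1 and Snrnp70, and 0 intergenic circles. The 0.982% of all mRNA genes called is for the main edgeR fit. No such share is given for the alternatives, so their counts of list genes have no background beside them. The difference in intergenic share was 0.0372 points without the chromosome 1 locus, and -0.422 (without WT replicate 2) to -0.151 (without WT replicate 1) when a library was left out. The difference in mean count per detected circle was -0.175 with geometric means, -1.74 without that locus and -0.803 without novel_circ_006579, against 0.542 as reported; the last 2 settings were chosen after seeing the data and lower 1 class by construction. The difference in share detected was -11.4 to -9.43 points with 5 libraries, where the smallest possible p is 0.0625. Over left-out libraries the log2 change of novel_circ_006579 ranged from -0.37 to -0.17, of novel_circ_001139 from -0.31 to 0.12, of novel_circ_000319 from 0.12 to 0.39 and of novel_circ_007008 from -0.28 to -0.02. Low counts limit single circles: 158 of 273 had at most 4.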

Other observations

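A pair of further loci is given as values, both chosen after their values were seen. On chromosome 17, 3 intergenic circles shared 1 acceptor, 1 of them partly over the noncoding gene Gm41655 and the others outside every RefSeq gene, and together gave 9, 2 and 8 counts in KI libraries, against 1, 0 and 2 counts in WT libraries. The lowest KI library equalled the highest WT library. A locus on chromosome 8 inside Gm42045, also 3 circles with 1 acceptor, gave 1, 4 and 1 counts in KI libraries, against 7, 3 and 3 counts in WT libraries, and the genotypes overlapped.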
